A study of Mus musculus with 4 samples.

Results

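The miR-132 and miR-212 cluster consists of a pair of neighboring miRNA hairpins whose 4 mature strands, mmu-miR-132-3p, mmu-miR-132-5p, mmu-miR-212-3p and mmu-miR-212-5p, were followed by name through all libraries of the series. They are 4 of the 1979 mature miRNAs listed. Small RNA had been sequenced from resting bone marrow–derived macrophages (BMDMs), cells grown from mouse bone marrow for 8 to 9 d in 10 ng/ml M-CSF and then held for 16 h in fresh medium free of LPS. The libraries were WT A and WT B, from separate cultures with unmodified *mir-146a*, KO, from mice homozygous for a deletion of *mir-146a*, and 3′F, from mice homozygous for a *mir-146a* allele in which the bases toward the 3′ end of the mature strand, outside the seed, are exchanged with those of the opposite strand of the hairpin. All mice were 6 to 7 mo old and of mixed 129/B6 background, with 3 mice named for each genotype, and each mutant line goes back to targeted embryonic stem cells from which the selection cassette had been removed. Whether a library pools mice is not stated, and KO and 3′F have 1 library each, so that nothing measured in them could be checked against a replicate or tested.

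The miR-132 and miR-212 hairpins are best known as products of 1 primary transcript that is switched on by the transcription factor CREB, for example in neurons responding to activity or to neurotrophins. In leukocytes, miR-132 is known to be raised by Toll-like receptor signaling and to target the mRNA of acetylcholinesterase, the enzyme that breaks down acetylcholine. Each hairpin gives a 5p and a 3p strand, and a strand finds its targets mainly through its seed, bases 2 to 8.

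The cluster lies on the plus strand of chromosome 11 (GRCm38.p6, RefSeq), on the same chromosome as *mir-146a* and 31.8 Mb from it. The miR-212 hairpin spans 91 nt from 75173388 to 75173478, and the miR-132 hairpin follows after a gap of 203 bp and spans 66 nt from 75173682 to 75173747. In the GENCODE vM21 annotation of the same build both lie in intron 1 of the 3-exon noncoding transcript 1700016P03Rik-201, on the same strand. The protein-coding genes nearest to the hairpins are *Ovca2*, 2194 bp away, and *Hic1*, 3868 bp away, both on the minus strand. The hairpins are printed to show how close together the strands are made, with the mature strands in capitals:
Mir212: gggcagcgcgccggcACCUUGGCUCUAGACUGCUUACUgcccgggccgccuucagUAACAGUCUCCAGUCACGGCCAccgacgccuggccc
Mir132: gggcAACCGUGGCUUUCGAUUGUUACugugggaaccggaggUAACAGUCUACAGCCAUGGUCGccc

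The mature strands are printed with the seed in capitals, because the seed decides which members can be read as 1 family:
miR-132-3p: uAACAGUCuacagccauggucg
miR-212-3p: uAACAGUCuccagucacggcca
miR-132-5p: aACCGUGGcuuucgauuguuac
miR-212-5p: aCCUUGGCucuagacugcuuacu

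The 3p strands shared 1 seed and the 5p strands had a different seed each, so that the 4 members carry 3 seeds. Counted from 1 at the 5′ end, miR-212-3p departs from miR-132-3p at 5 of 22 positions, A10C, C14U, U17C, U20C and G22A, all of them outside the seed. Of the 1979 listed miRNAs, 1679 had a RefSeq sequence by name, and among these no further miRNA had a seed of any of the 4 members. The 5p strands matched at 9 of 22 positions, with the first difference at position 2, inside the seed. Shifted against each other by 1 base they matched at 14 positions. For every member the counts were whole in all 4 libraries, whereas between 10.8% and 12.3% of the table's lines held fractional counts, which arise where a read fits more than 1 line.

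Library totals ran from 11410940 to 19087640 counts, and levels are given as reads per 1000000 counts (RPM), with 95% Wilson intervals that cover counting error only. At these depths 3 counts correspond to between 0.157 and 0.263 RPM. miR-146a-5p, deleted in KO and altered in 3′F, was at 6252.61 and 5485.09 RPM in the WT libraries, 13.4 in KO and 6.64 in 3′F. Its counts were fractional in KO (256.5) and in 3′F (107.5), as in WT A, so some of these reads also fitted another line. The origin of the remaining reads in the mutants was not tested. The myeloid miRNA miR-223-3p lay between 1466.22 and 1636.03 RPM in the 4 libraries. Of 6 listed neuronal miRNAs, miR-124-3p and miR-137-3p had no counts in any library, and miR-138-5p and miR-219a-5p stayed below 1 RPM. In contrast, miR-9-5p lay between 3.39 and 4.97 RPM and miR-128-3p between 900.7 and 1193.15 RPM.

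In WT BMDMs the cluster was expressed at a modest level and came mainly from 1 strand of each hairpin, miR-132-3p and miR-212-5p. miR-132-3p, the strand usually taken as the active product of its hairpin, was at 29.7 RPM in WT A and 30.15 RPM in WT B, or 29.9 ± 0.318 RPM (SD, n = 2 cultures), at ranks 185 and 188 of the listed miRNAs. miR-212-5p was at 24.95 RPM in WT A and 28.13 RPM in WT B, or 26.5 ± 2.25 RPM (SD, n = 2 cultures). The other strands were scarcer, with miR-132-5p at 6.44 and 5.7 RPM and miR-212-3p at 2.46 and 2.89 RPM. The order of the 4 levels, miR-132-3p, miR-212-5p, miR-132-5p and miR-212-3p, was the same in all 4 libraries. The counting intervals of the first pair barely overlapped in WT A (27.2 to 32.4 RPM for miR-132-3p against 22.7 to 27.4 for miR-212-5p) and overlapped in WT B (27.1 to 33.5 against 25.2 to 31.4) and in 3′F, so that counting error alone could reverse their order there, whereas in KO they lay apart (17.0 to 20.9 against 12.1 to 15.4). miR-132-5p and miR-212-3p lay below this pair in every library, and the intervals of their levels overlapped each other in 3′F but in none of the other 3. Strands are compared without a length correction because they are all 22 or 23 nt long, but ligation into a library depends on sequence, so that a ratio between different strands is not a ratio of molecules.

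The level of the cluster was lower in KO than in either WT culture. Most of the cluster's counts, and so most of this difference, lay on the more abundant strand of each hairpin. The counts of mmu-miR-132-3p were 507 for WT A, 344 for WT B, 359 for KO and 524 for 3′F, which puts KO at 18.81 RPM and 3′F at 32.36 RPM. KO stood alone below the other 3 libraries, whose intervals overlapped one another, while its own interval (17.0 to 20.9 RPM) reached none of them. The ratio of KO to WT A was 0.633 (95% counting interval 0.552 to 0.726) and that of KO to WT B 0.624 (0.537 to 0.725), against 1.02 (0.883 to 1.17) for WT B over WT A.

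miR-212-5p, whose seed is unlike that of the 3p strands, had the largest difference of the 4. The counts of mmu-miR-212-5p were 426 for WT A, 321 for WT B, 261 for KO and 470 for 3′F, which puts KO at 13.67 RPM and 3′F at 29.02 RPM. Again KO was the lowest library and its interval (12.1 to 15.4 RPM) lay below those of the others. The ratio of KO was 0.548 (0.468 to 0.641) to WT A and 0.486 (0.411 to 0.574) to WT B.

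The minor strands were also lowest in KO, by smaller amounts, and not every difference from WT exceeded counting error. For mmu-miR-132-5p the counts were 110 and 65 in the WT libraries, 84 in KO and 86 in 3′F, and the levels 4.4 RPM in KO and 5.31 RPM in 3′F. Its ratio of KO to WT A was 0.683 (0.508 to 0.916), and that to WT B was 0.773 with an interval that includes 1 (0.552 to 1.08). For mmu-miR-212-3p the counts were 42 and 33 in WT, 43 in KO and 56 in 3′F, and the levels 2.25 RPM in KO and 3.46 RPM in 3′F. Its ratios of KO to WT A and WT B were 0.916 (0.584 to 1.44) and 0.779 (0.483 to 1.27). A decrease of miR-212-3p in KO was therefore not detectable at this depth, although the interval against WT B reached down to about the ratio of miR-212-5p (0.486).

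**Figure D1:**
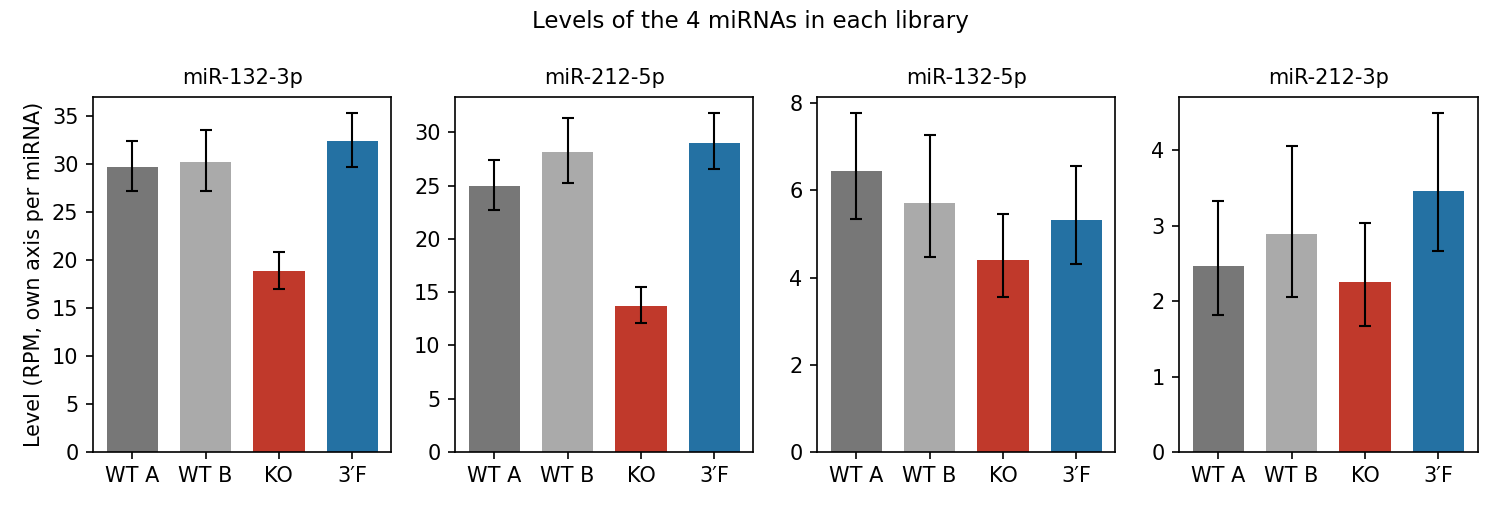
Level in RPM (vertical axis, starting at 0 and scaled separately for each miRNA) of the 4 strands in the 4 libraries, with bars for the levels and error bars for 95% Wilson counting intervals. For miR-132-3p and miR-212-5p the KO bar (18.81 and 13.67 RPM) stands below the other 3 with no overlap of intervals, while the intervals of miR-132-5p and miR-212-3p overlap across libraries.

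All 4 members were below both WT libraries in KO, a position shared by 40.5% of the 439 miRNAs whose mean level reached 1 RPM. At least 1.5-fold below both WT libraries, on the log2(RPM + 1) scale used for all counts of miRNAs here, were 2 of the 4, miR-132-3p and miR-212-5p, against 5.92% of all 439 (26 miRNAs). Among the 251 miRNAs whose mean level reached 10 RPM, to which only these 2 members belong, the share was 5.98%. The call for miR-132-3p sat close to the threshold, at 1.55-fold and 1.57-fold below the WT libraries, and was lost with the TMM factors of edgeR (1.47-fold below one WT library) and the size factors of DESeq2 (1.48-fold). At 2-fold, 0 of the 4 members and 1.82% of all miRNAs passed. As products of 1 transcript the 4 members are not independent observations.

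Summed over the 4 members, the cluster reached 63.55 and 66.87 RPM in the WT libraries, 39.13 RPM in KO and 70.15 RPM in 3′F. The sum in KO was 1.62-fold below WT A (interval 1.48 to 1.78) and 1.71-fold below WT B (1.54 to 1.89). On the log2(RPM + 1) scale the difference of KO from the WT mean was -0.72, while WT B was 0.07 above WT A. The median difference of the 4 members was -0.51 in KO, beside a median of -0.0032 over all 439 miRNAs, of which 10% lay below -0.55. By this difference, counted from the lowest, miR-212-5p had rank 17 of 439, miR-132-3p rank 32, miR-132-5p rank 74 and miR-212-3p rank 145. In bulk RNA, fewer cells that make a miRNA and less of it per cell cannot be told apart, and with 1 KO culture neither can the genotype and the culture.

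The 3′F library did not share the low level. Its summed cluster was 0.10 above the WT mean on the log2(RPM + 1) scale, and its ratio was 1.10 to WT A (1.01 to 1.20) and 1.05 to WT B (0.956 to 1.15). miR-132-3p, miR-212-5p and miR-212-3p were above both WT libraries, as were 26.2% of all 439 miRNAs, and miR-132-5p was below both, as were 42.6%. The ratios to WT A and WT B were 1.09 (0.963 to 1.23) and 1.07 (0.935 to 1.23) for miR-132-3p. For miR-212-5p they were 1.16 (1.02 to 1.33) and 1.03 (0.893 to 1.19). For miR-212-3p they were 1.41 (0.925 to 2.15) and 1.20 (0.764 to 1.90). With TMM or DESeq2 scaling miR-132-5p lay between the WT libraries, while the other strands stayed above them. At least 1.5-fold lower than both WT libraries in 3′F were 0 of the 4 members and 1.59% of all miRNAs, and at least 1.5-fold higher 0 members and 0.911%. The members had a median difference of 0.12, against -0.08 over all 439.

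Set against 3′F directly, neither of them having a wild-type *mir-146a* allele, KO was 1.79-fold lower in the summed cluster (interval 1.63 to 1.97). The same comparison gave 2.12-fold for miR-212-5p (1.82 to 2.48), 1.72-fold for miR-132-3p (1.501 to 1.97) and 1.53-fold for miR-212-3p (1.01 to 2.34). For miR-132-5p it gave 1.21-fold, with an interval that includes 1 (0.883 to 1.65). KO was at least 1.5-fold below each of the other 3 libraries for miR-132-3p and miR-212-5p, as it was for 16 of the 439 miRNAs (3.64%).

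**Figure D2:**
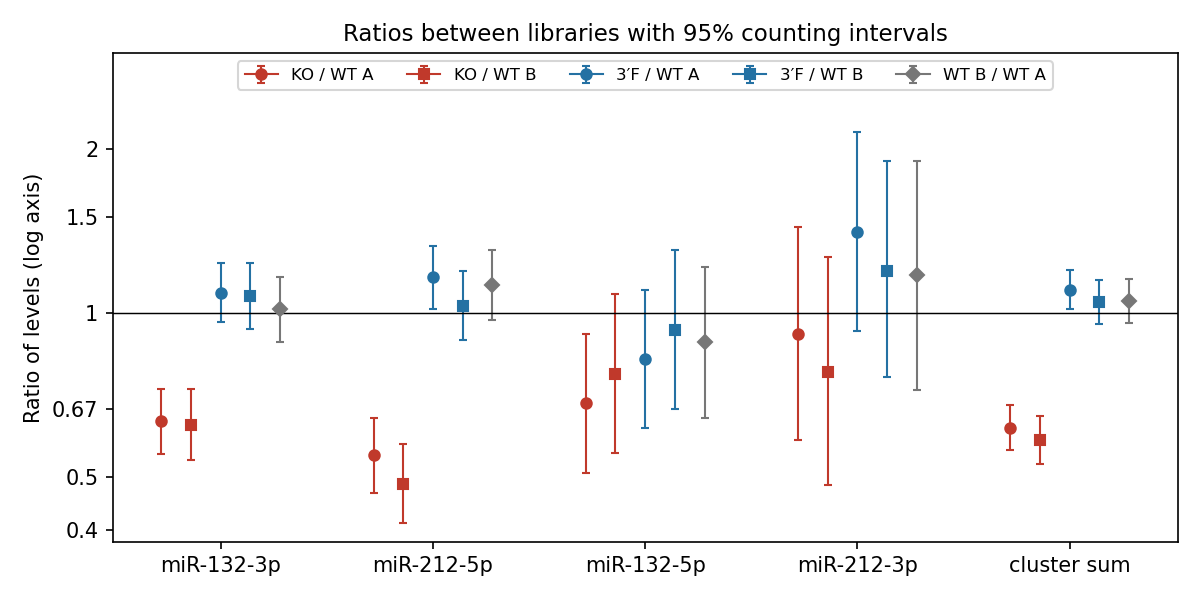
Ratio of levels between libraries (vertical log axis) for each strand and for the summed cluster, with 95% exact conditional counting intervals. Red points give KO over each WT library, blue points 3′F over each WT library and gray diamonds WT B over WT A. For the summed cluster the red points lie at 0.616 and 0.585 and the blue points at 1.10 and 1.05.

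**Figure D3:**
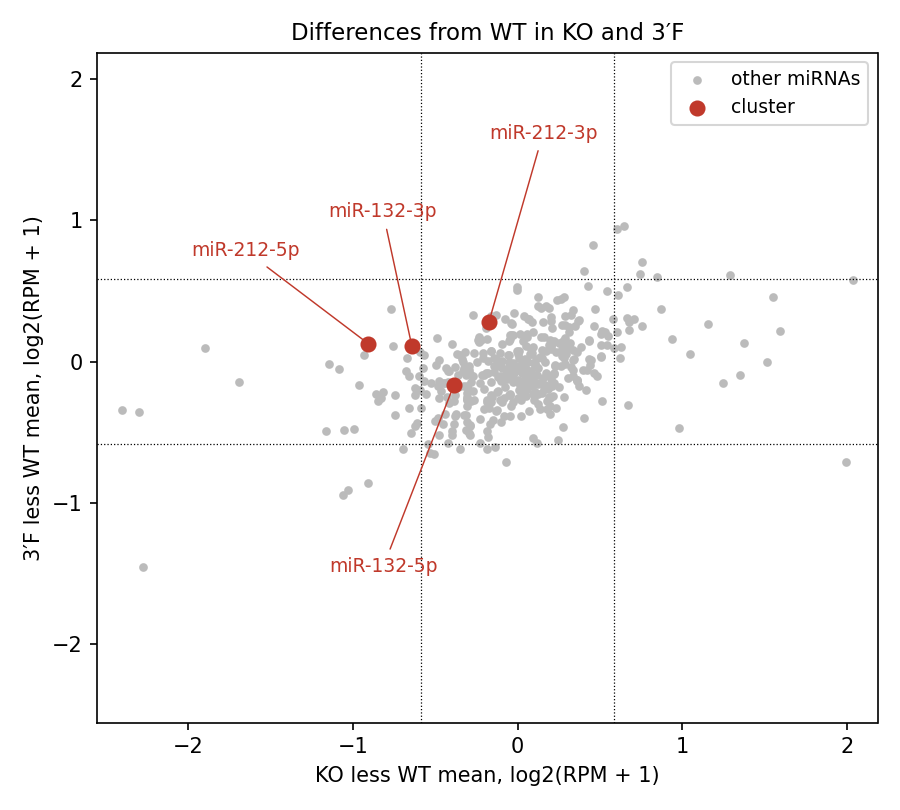
Difference from the WT mean in KO (horizontal axis) and in 3′F (vertical axis), both as log2(RPM + 1), for miRNAs whose mean level reached 1 RPM, each gray point a miRNA and each red point a strand of the cluster. Dotted lines mark 1.5-fold from the WT mean, and miR-146a-5p and the 3′F miRNA itself are off the axes and not drawn. miR-212-5p and miR-132-3p lie left of the dotted line (-0.91 and -0.64) but close to 0 in 3′F (0.13 and 0.11).

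The hairpins used opposite arms. miR-132 was represented mainly by its 3p arm, which held 82.2% (95% Wilson interval 79.0 to 85.0) and 84.1% (80.2 to 87.3) of the hairpin's counts in the WT libraries, 81.0% in KO (77.1 to 84.4) and 85.9% in 3′F (82.9 to 88.4). In contrast, miR-212 was represented mainly by its 5p arm, which held 91.0% (88.1 to 93.3) and 90.7% (87.2 to 93.3) in the WT libraries, 85.9% in KO (81.5 to 89.3) and 89.4% in 3′F (86.4 to 91.7). The WT mean was 83.1% ± 1.37 for the 3p arm of miR-132 and 90.9% ± 0.246 for the 5p arm of miR-212 (SD, n = 2 cultures). Among 109 hairpins with exactly 2 listed arms, each on 1 line, at a mean of 1 RPM or more and with counts in every library, the median share of the major arm in WT was 92.0%, and 33 were more balanced than miR-132 and 52 more balanced than miR-212. The major arm was 5p in 58 of them and 3p in 51.

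The 5p share of miR-212 was lowest in KO, where the major arm had fallen more than the minor one. The intervals of all 4 libraries overlapped, and the difference in share between libraries was not tested. As a log2 ratio of 5p to 3p it was 0.71 lower in KO than in the WT mean, and 11 of the 109 hairpins, miR-212 included, had a log2 ratio of major to minor arm that fell by that much or more. In 3′F the log2 arm ratio of miR-212 was 0.24 below the WT mean, and WT B was 0.06 below WT A. For miR-132 the log2 arm ratio in KO was 0.21 below the WT mean, while WT B was 0.20 above WT A.

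**Figure D4:**
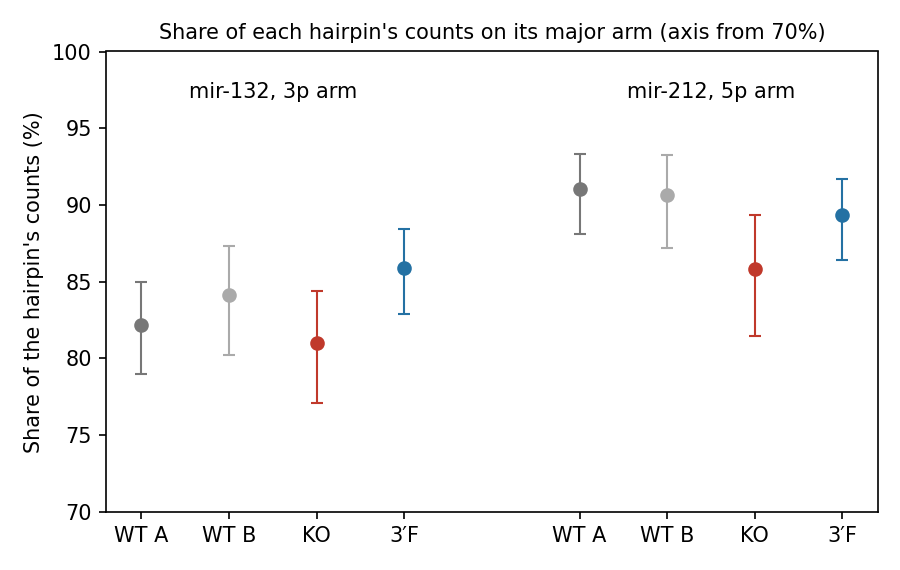
Share of each hairpin's counts that fell on its major arm (vertical axis in percent, drawn from 70%), the 3p arm for miR-132 on the left and the 5p arm for miR-212 on the right, with 95% Wilson intervals. The KO value is the lowest for both hairpins (81.0% and 85.9%) and its interval overlaps those of the other libraries.

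With opposite arms in use, the shared seed came mostly from miR-132. miR-132-3p exceeded miR-212-3p by 12.1-fold (interval 8.80 to 17.0) and 10.4-fold (7.28 to 15.4) in WT A and WT B, by 8.35-fold in KO (6.07 to 11.7) and by 9.36-fold in 3′F (7.09 to 12.6). It thus supplied between 89.3% and 92.3% of the counts with this seed in each library. The summed level of the 3p pair was 32.16 and 33.04 RPM in WT, 21.06 RPM in KO and 35.82 RPM in 3′F, a difference of KO from WT of -0.61 on the log2(RPM + 1) scale. Counted over both arms the hairpins differed less, with miR-132 the higher in each library. The ratio of the miR-132 to the miR-212 hairpin was 1.32 (1.17 to 1.49) and 1.16 (0.9997 to 1.34) in WT A and WT B, 1.46 for KO (1.26 to 1.69) and 1.16 for 3′F (1.03 to 1.31), and the KO interval overlapped each of the others.

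The miRNAs whose profile over the 4 libraries was most like that of the summed cluster were found by Euclidean distance between log2(RPM + 1) differences from the WT mean, among 249 other miRNAs at a mean level of 10 RPM or more. The nearest was miR-342-3p, at a distance of 0.12, with 748.65 and 732.37 RPM in WT, 463.6 in KO and 753.96 in 3′F, a miRNA far more abundant than the cluster with a similar difference in KO, -0.67. Next came miR-1839-3p (distance 0.17), miR-1983 and miR-1964-3p (0.24 each) and miR-29c-5p (0.26), with differences in KO between -0.93 and -0.48. miR-342-3p and miR-1839-3p were also among the nearest 5 with a minimum of 1 RPM and with TMM scaling. miR-1964-3p stayed with TMM only, and the other places changed. With only 4 libraries the likeness describes these cultures.

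Of 11 miRNAs taken from general knowledge as linked to macrophage activation or to CREB, 10 were expressed at a mean of 1 RPM or more. The list was drawn up with earlier results of these data known, so its shares are description and no independent check. In KO, 2 of the 10 were at least 1.5-fold below both WT libraries, against 5.92% of all miRNAs, and 2 were at least 1.5-fold above, against 4.78%, while in 3′F 0 of the 10 passed in either direction. The median difference of the 10 was -0.31 in KO and -0.10 in 3′F. The lower pair, miR-34b-3p (-2.30) and miR-34c-5p (-2.40), are made from neighboring hairpins, and the higher pair were miR-146b-5p (1.35), the sister of miR-146a, and miR-125a-5p (0.67). miR-155-5p, a miRNA strongly induced by LPS, was at 71.28 and 70.28 RPM in WT, 55.22 in KO and 62.74 in 3′F. miR-147-3p, another LPS-induced miRNA, was at 8.96 and 11.92 RPM in WT, 5.71 in KO and 11.24 in 3′F, and did not pass. The opposite strand of its hairpin, miR-147-5p, is not on the list and had a mean of 11.7 RPM. Its difference from the WT mean was -1.08 in KO and -0.05 in 3′F, so that in KO it was further below WT than any member of the cluster.

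Short lists of marker miRNAs of other cells were read in the same libraries. The summed level of 3 erythroid miRNAs was 93.18 and 94.07 RPM in WT and was lower in KO (36.51 RPM) as well as in 3′F (43.32 RPM). Of the 2 erythroid miRNAs with a mean of at least 1 RPM, miR-451a and miR-486a-5p, both were at least 1.5-fold below WT in each mutant, against 5.92% of all 439 miRNAs in KO and 1.59% in 3′F. That of 5 stromal miRNAs was likewise 10.45 and 10.73 RPM in WT, 7.51 in KO and 7.19 in 3′F, with 1 of 3 expressed members, miR-143-3p, at least 1.5-fold lower in each mutant. The others, miR-199a-3p (3.18 and 3.71 RPM in WT, 3.63 in KO and 3.21 in 3′F) and miR-199a-5p (2.17 and 1.49 RPM in WT, 1.68 in KO and 1.64 in 3′F), lay between the WT libraries. miR-145a-5p had 3 and 2 counts in WT and 0 in each mutant, too few to compare. The summed level of 2 endothelial miRNAs was 11.07 and 10.17 RPM in WT, 13.99 in KO and 11.05 in 3′F, and the lymphoid miR-150-5p was at 2.93 and 2.8 RPM in WT, 2.51 in KO and 1.54 in 3′F. Of 6 neuronal miRNAs, 2 were without counts in all libraries, and the sum of 961.47 RPM in KO lay between those of the WT libraries, 905.46 and 1198.77, with nearly all of it from miR-128-3p. The 5 macrophage and myeloid miRNAs had 0 members at least 1.5-fold from WT in either mutant. The part of erythroid and stromal cells in the level of the cluster was not tested.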

How the data were processed

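Small RNA was sequenced from 4 BMDM libraries. According to the labels, inserts of about the size of miRNAs were selected after a ligation-based library preparation, and the submitters' processing notes name cutadapt 1.8.3. The aligner, counter, genome build and miRNA release are not given in the sources used here. The authors deposited estimated counts per mature miRNA and precursor, in which reads fitting several lines are shared out as fractions, and RPM values, scaled so that the 2129 lines of a library add up to 1000000. Where a mature miRNA had several lines, that with the highest summed count was kept. Each member has 1 line, so this step did not touch the members.

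Differences were taken on the log2(RPM + 1) scale from the WT mean and therefore understate changes of low miRNAs. Ratios of levels between libraries were taken from the counts over library totals, with exact conditional binomial intervals of 95%, and shares with Wilson intervals. Reads are not independent molecules, so intervals cover counting error only. With a single library of each mutant, no p-values are given. Counts of miRNAs cover those whose mean over the libraries reached 1 RPM, a minimum that keeps all 4 members, and a miRNA was called lower or higher at 1.5-fold or more from both WT libraries. The functions were checked on simulated libraries for the direction of changes larger than 1.5-fold, which does not cover calls near that threshold.

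The members, the lists, the thresholds and the rule for naming miRNAs (members, seed mates, the 5 nearest patterns, list members past 1.5-fold and miR-146a-5p) were chosen with earlier results of these data known. miR-155-5p, miR-147-3p, miR-147-5p and marker miRNAs named singly are not covered by it and were picked with their values in view. Alternatives were RPM recomputed from the retained lines, TMM factors of edgeR, DESeq2's size factors (counts rounded), 0.1 as pseudocount, minimums of 10 and 100 RPM and none, 2-fold, and each WT library left out. Sequences are from RefSeq (GRCm38.p6), matched by miRNA name, and neighboring genes from GENCODE vM21. Promoter sequences were not analysed here. Python 3.11.15, numpy 2.4.6, pandas 2.3.3, scipy 1.17.1, matplotlib 3.10.9, R 4.3.3, edgeR 4.0.16 and DESeq2 1.42.0 were used.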

Additional observations from a re-analysis of the deposited data

How the results depend on the processing

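The log2 difference of the summed cluster in KO stayed between -0.76 and -0.68 with every other scaling and pseudocount tried and without WT A or WT B, and all 4 members stayed below both WT libraries under those scalings, an alternative chosen after seeing the data. In 3′F the sum moved from 0.10 to 0.18 with TMM and 0.17 with DESeq2's size factors. The number of members at least 1.5-fold lower in KO, 2, became 1 with TMM and 1 with DESeq2's size factors, and 0 at 2-fold. Over all miRNAs the numbers in these settings were 23 of 444, 22 of 439 and 8 of 439. A minimum of 100 RPM leaves no member to count. The number of all miRNAs lower in KO, 26 of 439 (5.92%), was 15 of 251 (5.98%) at a minimum of 10 RPM and 4 of 126 at 100 RPM. It dropped to 8 at 2-fold, and rose to 38 with a pseudocount of 0.1, to 45 when WT A was left out and to 38 when WT B was. In 3′F the number, 7 of 439, became 16 with a pseudocount of 0.1, 1 of 126 with a minimum of 100 RPM and 2 at 2-fold, and rose to 24 when WT A was left out and to 18 when WT B was. A miRNA then has to pass against 1 library only. The log2 ratio of miR-132-3p to miR-212-3p in WT, 3.49, became 3.08 with a pseudocount of 1 RPM, which weighs on the scarcer strand. Of the 5 nearest patterns, 2 stayed with a minimum of 1 RPM and 3 with TMM. Where no reason is given, the cause was not tested. miR-212-3p, with at most 56 counts in a library, is the member that depth limits most. No paired analysis was possible because each mutant has a single library, with the letter A, and so shares only that letter with WT.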
